A study of Homo sapiens with 12 samples.

Results

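The genes described here encode machinery that sorts membrane proteins at endosomes and the trans-Golgi network, or that fuses the resulting vesicles with their targets. They are 101 genes of 13588 listed in either of 2 expression tables, all 101 in the first table and 96 in both. Members were chosen by gene name: the numbered sorting nexins (SNX), syntaxins (STX), vesicle-associated membrane proteins (VAMP), vacuolar protein sorting genes (VPS) and the subunits of the clathrin adaptors AP-1, AP-2 and AP-3. The group was proposed because AP1M1, STX6 and SNX6 had the largest falls among the genes called lower in the second table. The second table's values of these genes were thus used to choose them. They are given as a description, as is the number called there.

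The RNA came from MCF-12A, a non-tumour line of human breast epithelium, and was measured by RNA-seq. The treatment was TGFbeta1, a cytokine that drives epithelial cells towards a mesenchymal state, and controls received vehicle. The first set holds controls C1 to C3 and TGFbeta1 libraries T1 to T3, and the second set holds controls C4 to C6 and TGFbeta1 libraries T4 to T6, with 3 libraries per group in each. The labels used here give no dose, no duration, no genotype beyond the line, and no statement that libraries came from separate cultures, so the spread behind each p-value is that between these libraries, which may be technical. Each set was normalised separately, and every test was made within a set, so levels of different sets placed side by side are described only.

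Values are FPKM, which scale fragments by transcript length and by the library's mapped fragments, summed over the listed transcripts of a gene. Depth and counting error are unknown, since the tables used hold no counts. The FPKM of a library added up to 291801.6 to 318269.5 (first set) or 338968.0 to 358432.6 (second set). The basal epithelial markers KRT5, KRT14 and TP63 were present in all 12 libraries, with KRT5 at 842 FPKM or more in the first set and 451 or more in the second. Of the other cell types' markers, 2 of 6 fibroblast genes and 1 of 5 leukocyte genes were listed in the first set, where the fibroblast sum ranged from 1.56 to 1.84 FPKM in controls and from 13.7 to 16.9 with TGFbeta1. There limma called COL1A1 (log2 change 2.65) and DCN (1.21) higher and the leukocyte gene CD68 (-0.48) lower. In the second set 3 of 6 fibroblast genes were listed, and their sum was 28.6 to 32.6 FPKM in controls against 12.04 to 15.7. DCN made up most of that sum, with means of 28.6 and 12.4 FPKM, and limma called it lower (log2 change -1.14, limma adjusted p = 0.0380). Under the filter and not tested were PDGFRA, lower at means of 1.31 and 0.692 FPKM, and COL1A1, higher at 0.439 and 0.713. Of the 5 basal markers limma called LAMB3 (log2 change 2.05) and CDH3 (1.09) higher and KRT5 (-0.64) lower in the first set, where their sum was 1972 to 2526 FPKM in controls and 1992 to 2046 with TGFbeta1. Of 4 tested luminal markers KRT18 (-0.75) and EPCAM (-1.03) were lower, while KRT8 (0.82) and CDH1 (-0.66) did not pass. The sum over the luminal list was 416.3 to 502.8 FPKM against 272.6 to 513.8, with KRT8 at 258 FPKM in T3. ESR1 was at most 1.53 FPKM. The second set had no basal or luminal marker called by limma (2 luminal genes higher at an unadjusted p below 0.05). Basal sums there were 1345 to 1568 FPKM against 1396 to 1537, and luminal sums 303.7 to 336.2 against 353.8 to 396.2. The part of these markers in the results below was not tested.

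Known TGFbeta response genes were read to check the labels. SMAD7, SKIL, ITGB6, TGFBI and FN1 all rose in the first set, with log2 changes from 1.27 to 3.70. In the second set limma called none of these 5 (2 were lower at an unadjusted p below 0.05), where their log2 changes ran from -1.42 to 0.02. The second set's treated samples are therefore called the libraries labelled TGFbeta1, and a direction drawn from them is a direction between labels.

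Membrane proteins that reach an endosome are either sent to the lysosome by the ESCRT machinery or recycled. Recycling to the trans-Golgi network or the plasma membrane uses retromer, sorting nexins that bend the membrane, and clathrin adaptors, which link cargo tails to the coat. The carriers are caught by tethers such as HOPS and GARP and fuse when a vesicle SNARE (VAMP) pairs with syntaxins on the target membrane. In epithelial cells these routes carry integrins, growth factor receptors and junction proteins, including receptors for TGFbeta.

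AP1M1 encodes the medium (mu) subunit of AP-1, which recognises tyrosine-based sorting signals in cargo tails. On hg19, the build of the files, the gene spans chromosome 19, 16308389 to 16356718, on the plus strand. Its values rest on 2 transcripts that differ greatly in length. In GENCODE 29, AP1M1-201 is 13193 bases long with 12 exons, and AP1M1-203 is 2311 bases long with 13. They share all 1269 coding bases of AP1M1-201, and AP1M1-203 has 36 more in an exon that AP1M1-201 skips. SNX6, a sorting nexin that forms the membrane-bending coat with SNX1 or SNX2, spans chromosome 14, 35030300 to 35099389, on the minus strand of hg19. SNX6-201 (2001 bases, 1254 of them coding) and SNX6-202 (3398 bases, 870 coding) share 870 coding bases, and SNX6-201 starts its coding sequence further upstream. For each gene a coding stretch that tells the 2 transcripts apart is shown, because the second set's FPKM was split between them. The transcripts also differ in length outside these stretches. Sequences are from the GENCODE 29 transcripts, 5′ to 3′ on the transcript, with GRCh38 positions. Capitals mark the bases absent from the other transcript's exons, and lower case marks 12 flanking bases of the same transcript.
AP1M1-203, chr19:16210360-16210395, plus strand: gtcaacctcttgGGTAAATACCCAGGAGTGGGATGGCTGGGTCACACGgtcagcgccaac
SNX6-201, chr14:34630111-34630152, minus strand: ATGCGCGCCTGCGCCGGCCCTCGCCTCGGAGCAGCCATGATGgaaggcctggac

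In the first set, 62 of the 94 members tested had a log2 change within 0.25 of 0, and 11 passed the test, led by SNX10, VAMP4 and AP3S2 upwards and by AP1S3, STX18 and SNX5 downwards. A minimum mean of 1 FPKM was passed by 94 of 101 members, and limma on log2(FPKM + 1), adjusted over all genes at 0.05, called 7 higher and 4 lower. These are 7.45% and 4.26% of the members tested, beside 9.0% higher and 11.9% lower among all 10454 genes tested. The other 83 tested members did not pass. With the libraries rescaled to an equal sum, 57.7% of the calls over all genes were higher, against 43.0% here, and 9 members were higher and 4 lower. At an unadjusted p below 0.05 there were 11 higher and 9 lower, beside 14.2% and 20.8% of all genes tested. The median log2 change was 0.04 for the members and -0.06 for all genes, and the median size of the change, without sign, was 0.15 and 0.26. Among the members under the filter were AP1M2, AP3B2, STX11, STX19, SNX21 and VPS37D. All log2 changes are differences of mean log2(FPKM + 1), TGFbeta1 minus control, a scale that understates the change of low genes. In these bulk libraries fewer cells of a type and less RNA per cell cannot be told apart.

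The number of calls moved with single libraries. Members called higher numbered 3 without C1, 2 without T1, 2 without T2 and 3 without T3, and those called lower numbered 2 without C1, 2 without C2 and 2 without T1. Without T2, 6 were called lower, since SNX8 and SNX33 were added. AP1S3, STX18, AP3S2 and VAMP3 were called without any one of the 6 libraries, and every other member's call was lost without at least 3 of them.

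Of 96 members in the second set, 95 passed the filter, and limma called 0 higher and 3 lower, the 3 genes that led to the choice of the group. That is 3.16% of the members tested, beside 0.17% higher and 0.151% lower among all 10579 genes tested, and nothing is read from it. The same holds for the 4 higher and 5 lower at an unadjusted p below 0.05, beside 5.8% and 5.4% of all genes. The median log2 change was -0.03 over the members.

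**Figure D1:**
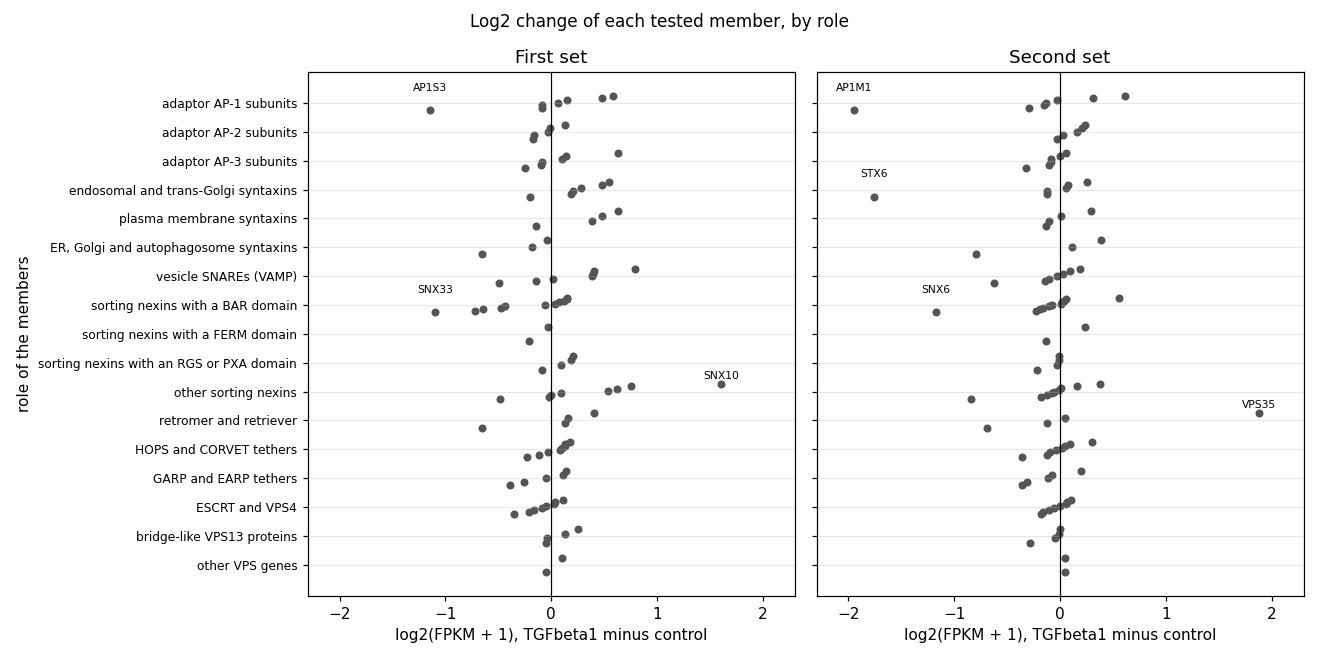
Each point is the log2 change of 1 tested member (log2(FPKM + 1), TGFbeta1 minus control) in the first set (left, 94 genes) and the second set (right, 95 genes), by role, with members beyond 0.9 named. Most points lie near 0, and AP1M1, STX6 and SNX6 stand at the low end of the second set, the contrast on which they were chosen.

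AP-1 is the adaptor of the trans-Golgi network and endosomes, built of gamma, beta, mu and sigma subunits. In the second set AP1M1 was listed at 14.2, 13.8 and 12.7 FPKM in C4, C5 and C6 and at 2.58, 3.14 and 2.68 in T4, T5 and T6. All 3 libraries labelled TGFbeta1 lay below all 3 controls, with group means of 2.80 ± 0.301 and 13.6 ± 0.778 (SD, n = 3 each; log2 change -1.94). In the first set the gene was listed at 5.34, 14.99 and 6.83 FPKM in C1 to C3 and at 6.63, 21.7 and 14.5 in T1 to T3. The groups overlapped there, with 1 high control and 1 low TGFbeta1 library, and the log2 change was 0.59 (SE 0.52, limma adjusted p = 0.471).

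The AP1M1 transcripts differed between the labels in which form held the FPKM. In the second set AP1M1-203, the short form with the 36-base exon shown above, was listed at 13.8, 13.1 and 12.2 FPKM in C4 to C6 and at 0.009, 0.344 and 0 in T4 to T6. The long AP1M1-201 went the other way, at 0.417, 0.646 and 0.525 FPKM in the control libraries and 2.57, 2.80 and 2.68 in T4 to T6. The 2 forms did not overlap between groups, in opposite directions. Because FPKM divides by transcript length, a fragment assigned to AP1M1-203 adds more FPKM than one assigned to AP1M1-201. Multiplying each transcript's FPKM by its length in kilobases, an alternative added after seeing the data, gave sums of 37.5, 38.9 and 35.1 in C4 to C6 and 33.9, 37.7 and 35.3 in T4 to T6. On this length-weighted scale the groups overlapped and the log2 change was -0.06. Whether the exchange lies in the cells or in the assignment of reads to transcripts was not tested.

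The same 2 transcripts carried AP1M1 in the first set, among 8 listed. AP1M1-203 (listed there as AP1M1-004) read 0.990, 10.5 and 0.621 FPKM in C1 to C3 and 1.58, 16.3 and 8.76 in T1 to T3. C2, T2 and T3 were high and C1, C3 and T1 low, so both levels occurred in both groups. The length-weighted sums were 56.4, 52.5 and 66.6 in controls and 65.0, 64.8 and 62.7 with TGFbeta1, which overlapped (log2 change 0.14, limma adjusted p = 0.398).

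STX6 encodes a syntaxin of the trans-Golgi network and early endosomes that pairs with STX16 and VAMP4 for transport back from endosomes. It spans chromosome 1, 180941848 to 180992257, on the minus strand of hg19. The second set listed it at 22.5, 19.0 and 21.5 FPKM in C4 to C6 and at 4.90, 5.21 and 6.39 in T4 to T6. The 3 libraries labelled TGFbeta1 lay below the controls, with means of 5.50 ± 0.790 and 20.98 ± 1.83 (SD, n = 3 each; log2 change -1.76). Only 1 transcript was listed in this set, so the length-weighted log2 change of -1.90 rescales the same values and adds no separate check. Whether reads were assigned to forms that are not listed was not tested. In the first set STX6 was listed at 19.7, 4.72 and 19.1 FPKM in C1 to C3 and at 21.1, 20.1 and 6.55 in T1 to T3. A high and a low level thus occurred within each group, with C2 and T3 low, and the log2 change was 0.19 (SE 0.67, limma adjusted p = 0.871).

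SNX6 was listed in the second set at 47.1, 47.8 and 63.6 FPKM in C4 to C6 and at 23.9, 23.0 and 21.1 in T4 to T6. The groups did not overlap, with means of 52.8 ± 9.32 and 22.6 ± 1.43 (SD, n = 3 each; log2 change -1.17). SNX6-201, the form with the upstream start shown above, read 13.5, 15.3 and 51.9 FPKM in the control libraries and 1.08, 1.12 and 1.34 in T4 to T6. SNX6-202 read 32.7, 31.0 and 9.56 in the controls and 20.1, 21.2 and 17.9 in T4 to T6, so C6 held mostly the other form from C4 and C5. The length-weighted sums were 138.9, 137.1 and 137.8 in C4 to C6 and 72.5, 74.8 and 65.0 in T4 to T6. On that scale the controls were nearly equal and the log2 change was -0.96. In the first set SNX6 was listed at 33.7, 33.8 and 28.7 FPKM in C1 to C3 and at 35.5, 36.8 and 34.2 in T1 to T3. The TGFbeta1 libraries were slightly above the controls (log2 change 0.14, SE 0.09, limma adjusted p = 0.295).

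**Figure D2:**
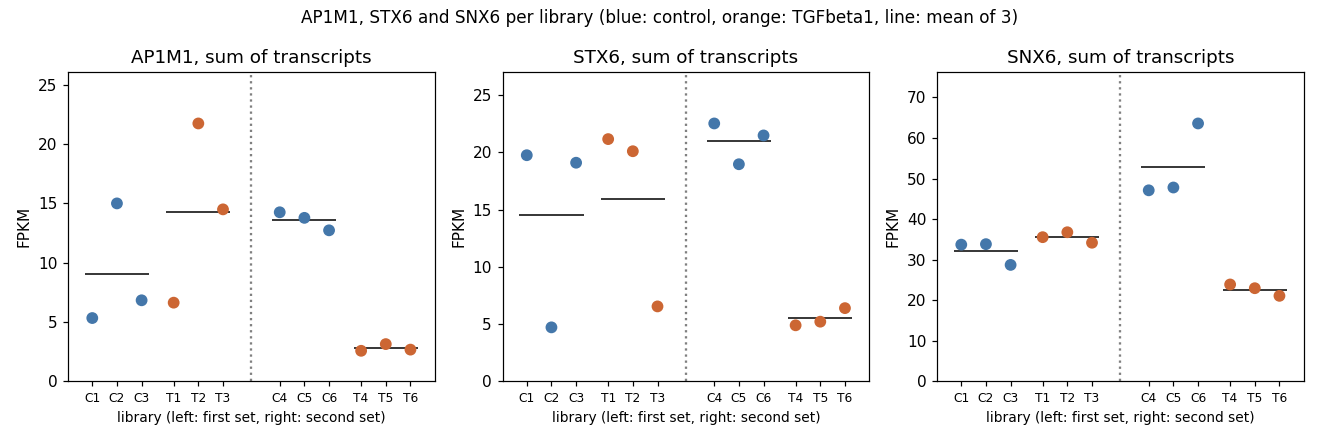
Summed FPKM of AP1M1, STX6 and SNX6 (vertical axes) in the 12 libraries, with the first set left and the second set right of the dotted line (blue control, orange TGFbeta1, black lines the means of 3 libraries). The low STX6 values of C2 and T3, 4.72 and 6.55 FPKM, lie near those of T4 to T6, though the sets were normalised separately.

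**Figure D3:**
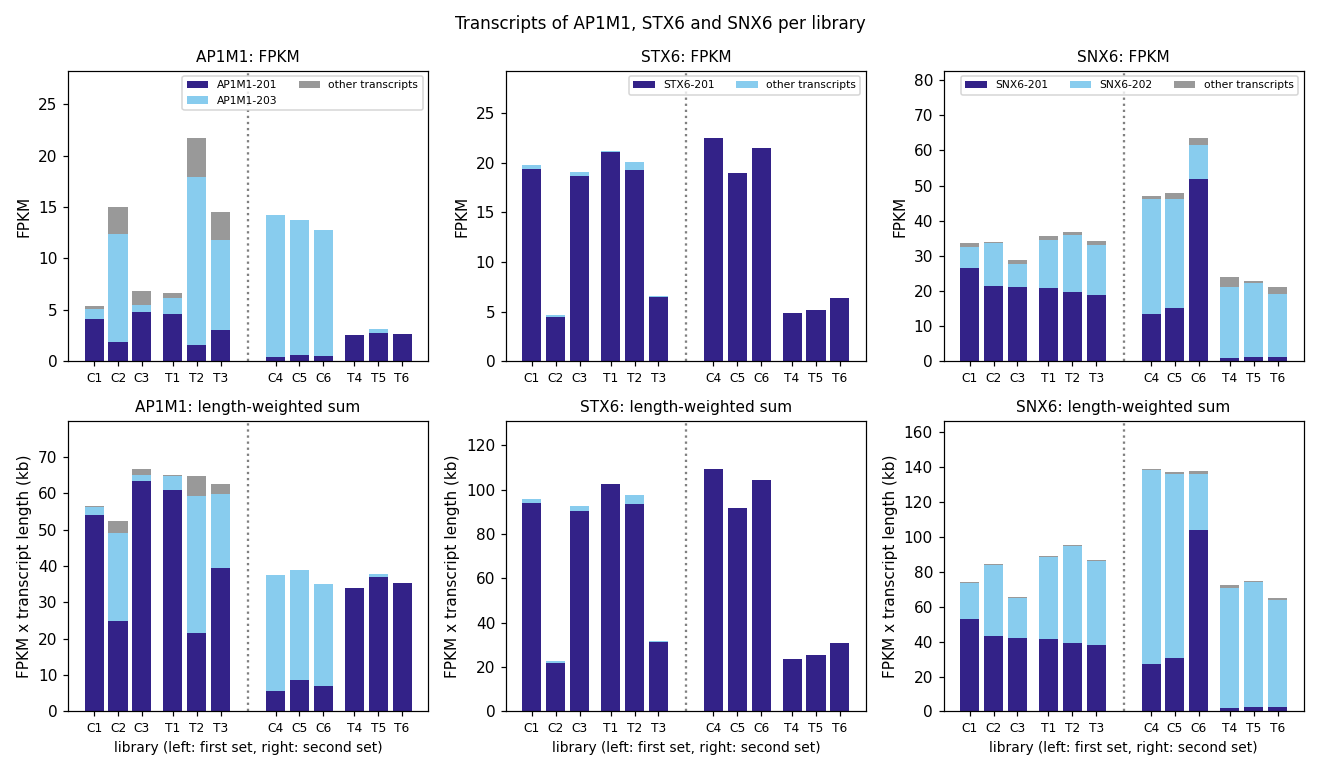
Stacked bars show each library's FPKM (top) and FPKM multiplied by transcript length in kilobases (bottom) for the listed transcripts of AP1M1, STX6 and SNX6. In the second set AP1M1 exchanges AP1M1-203 for AP1M1-201 with overlapping length-weighted sums, while the sums of STX6 and SNX6 stay apart between labels.

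The sigma subunits of AP-1, small chains that help bind dileucine signals, moved in both directions in the first set. AP1S3 (chromosome 2, 224616403 to 224702744 on hg19) was listed at 18.2, 18.9 and 20.5 FPKM in C1 to C3 and at 7.38, 7.56 and 9.46 in T1 to T3. Every TGFbeta1 library was below every control, and AP1S3 fell by 1.15 on the log2 scale (SE 0.11, limma adjusted p = 0.00198). Its main transcript, AP1S3-007, fell with it, from a mean of 16.5 ± 0.933 to 6.86 ± 0.973 FPKM (SD, n = 3 each; transcript-level limma adjusted p = 0.00971). Over the transcripts that both sets list, the log2 change of AP1S3 was -0.65 (limma adjusted p = 0.0139). AP1S2 was listed at 3.29, 3.10 and 4.22 FPKM in C1 to C3 and at 5.05, 5.81 and 5.02 in T1 to T3, and rose by 0.48 (SE 0.12, limma adjusted p = 0.0453). That call was lost when any library but C3 was left out, with adjusted p up to 0.13, and without the filter on low values (limma adjusted p = 0.0542). Second-set values of AP1S2 were 9.31, 9.78 and 9.51 FPKM in C4 to C6 and 9.21, 8.65 and 7.62 in T4 to T6, slightly lower with no overlap. AP1S1, the most abundant sigma chain at 78.4 to 87.3 FPKM in the first set, did not pass (log2 change 0.07, limma adjusted p = 0.465).

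The large subunits did not pass. AP1G1 (gamma) had a log2 change of 0.15 (limma adjusted p = 0.363), AP1B1 (beta) one of -0.09 (limma adjusted p = 0.702) and AP1G2, the other gamma chain, one of -0.09. AP1M2, the epithelial mu subunit that replaces AP1M1 in AP-1B, was listed at 0.148 to 0.676 FPKM in the first set and stayed under the filter. The second set listed AP1S3 at 2.34, 2.43 and 2.18 FPKM in C4 to C6 and 4.37, 2.39 and 6.20 in T4 to T6. The groups overlapped, and the log2 change was 0.62.

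AP-2, the plasma membrane adaptor of clathrin-mediated endocytosis, includes the member with the highest mean level in the first set. AP2M1, its cargo-binding mu subunit, was listed at 178, 191 and 208 FPKM in C1 to C3 and at 173, 230.1 and 230.0 in T1 to T3. None of the 5 AP-2 subunits passed in the first set, nor did any at an unadjusted p below 0.05. Their log2 changes ran from -0.17 to 0.12, with AP2M1 the highest (limma adjusted p = 0.558) and AP2S1, the sigma chain, at -0.01.

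AP-3, the adaptor that sends cargo to lysosomes and related organelles, had 1 of 6 tested subunits called higher, beside the 9.0% of all genes. AP3S2, 1 of its sigma chains (chromosome 15, 90373831 to 90437870 on hg19), was listed at 3.25, 3.30 and 3.08 FPKM in C1 to C3 and at 5.57, 5.004 and 5.99 in T1 to T3. The groups did not overlap, and AP3S2 rose by 0.63 (SE 0.09, limma adjusted p = 0.00699). The full-length transcript AP3S2-001 rose from a mean of 1.35 ± 0.263 to 4.43 ± 0.248 FPKM (SD, n = 3 each; transcript-level limma adjusted p = 0.0112), while the shorter AP3S2-009 was at 1.44 ± 0.157 and 0.918 ± 0.426 and did not pass. AP3S2 overlaps the readthrough gene C15orf38-AP3S2, at 0.666, 0.151 and 2.42 FPKM in C1 to C3 against 0.138, 0.125 and 0.169 in T1 to T3, so reads could be split between them and the value is uncertain. The log2 change of AP3S2 was 1.22 over the transcripts that both sets list (limma adjusted p = 0.00254) and 1.45 on the length-weighted scale. Second-set values of AP3S2 were 4.90, 5.69 and 5.11 FPKM against 5.35, 5.48 and 4.81, which overlapped.

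Among the vesicle SNAREs, 2 of 7 rose in the first set, where 9.0% of all genes did, and the other 5 did not pass. VAMP3 (cellubrevin, of recycling endosomes, chromosome 1, 7831329 to 7841492 on hg19) was listed at 48.2, 51.1 and 50.3 FPKM in C1 to C3 and at 65.4, 66.2 and 66.8 in T1 to T3. The libraries of each group lay close together and apart from the other group, and VAMP3 rose by 0.40 (SE 0.06, limma adjusted p = 0.00631). VAMP4, the trans-Golgi SNARE that pairs with STX6 and STX16, was listed at 2.61, 3.65 and 2.33 FPKM in controls and 5.59, 5.48 and 5.81 with TGFbeta1. It rose by 0.79 (SE 0.14, limma adjusted p = 0.0149), and the call was lost without C1 or any 1 TGFbeta1 library, with adjusted p up to 0.0539. VAMP5, found mainly in muscle, was at 3.95 ± 0.378 and 5.46 ± 0.541 FPKM (SD, n = 3 each) and did not pass (log2 change 0.38, limma adjusted p = 0.053). In the other set VAMP3 was listed at 56.8, 53.9 and 53.3 FPKM against 53.5, 55.1 and 52.3, and VAMP4 at 4.92, 4.11 and 3.42 against 5.05, 4.31 and 4.02. Both overlapped between labels. VAMP8, the late endosomal SNARE and the most abundant VAMP, was listed at 40.4, 107 and 103 FPKM in C1 to C3 and 96.4, 104 and 101 in T1 to T3. C1 was far below the other 5 libraries, and the log2 change of 0.39 did not pass (SE 0.38, limma adjusted p = 0.517) and was -0.06 without C1.

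For VAMP2, a SNARE of regulated secretion, 1 transcript passed and the gene sum did not. VAMP2-003 was listed at 2.28, 2.70 and 2.05 FPKM in C1 to C3 and at 0.664, 0.461 and 0.553 in T1 to T3, and fell by 1.10 (SE 0.16, transcript-level limma adjusted p = 0.0213). Summed over its transcripts, VAMP2 was at 8.81, 13.5 and 7.04 FPKM against 5.30, 5.33 and 9.22, which overlapped. Over the members, 161 single transcripts were tested in the first set, of which 2 were called higher (VAMP3-001 and AP3S2-001) and 3 lower (AP1S3-007, STX18-001 and VAMP2-003). Among all 18113 transcripts tested, 2.71% were called higher and 2.83% lower.

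Syntaxins sit on the target membrane. None of the 6 endosomal and trans-Golgi syntaxins passed limma in the first set (1 higher and 1 lower at an unadjusted p below 0.05), where STX16, a partner of STX6, was at 18.8 ± 3.08 and 22.9 ± 0.403 FPKM (SD, n = 3 each; log2 change 0.28, limma adjusted p = 0.18). Of 4 tested plasma membrane syntaxins, STX2 (epimorphin) was listed at 3.13, 3.29 and 3.92 FPKM in C1 to C3 and at 4.80, 5.11 and 5.70 in T1 to T3. The groups did not overlap, and STX2 rose by 0.48 (SE 0.11, limma adjusted p = 0.0303). That call was lost when any library but C3 was left out, with adjusted p up to 0.09. In T4 to T6 STX2 was at 7.62, 7.72 and 7.80 FPKM, below the 8.29, 9.10 and 8.26 of C4 to C6.

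STX18, the syntaxin of the endoplasmic reticulum that receives carriers from the Golgi, was listed at 9.63, 10.3 and 10.2 FPKM in C1 to C3 and at 6.22, 5.9997 and 5.79 in T1 to T3. The 3 TGFbeta1 libraries were all lower, and STX18 fell by 0.66 (SE 0.07, limma adjusted p = 0.00286), all of it in its 1 listed transcript. It spans chromosome 4, 4420695 to 4544073, on hg19. Its second-set values were 8.94, 7.75 and 5.25 FPKM against 7.06, 7.71 and 8.76, which overlapped.

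The sorting nexins that carry a membrane-bending BAR domain had 2 of 11 tested members called lower in the first set, beside 11.9% of all genes. SNX5 and SNX2, which can form 1 coat together, were both among them. SNX5 was listed at 77.3, 79.1 and 74.2 FPKM in C1 to C3 and at 44.7, 59.3 and 44.0 in T1 to T3, with no overlap, and fell by 0.64 (SE 0.13, limma adjusted p = 0.0212). Its call was lost without C1, C2, T1 or T3, with adjusted p up to 0.0693. SNX2 was listed at 33.3, 31.2 and 33.6 FPKM in controls and 24.2, 25.3 and 20.6 with TGFbeta1, and fell by 0.47 (SE 0.10, limma adjusted p = 0.0219). Its call was lost without any 1 control or without T1, with adjusted p up to 0.0718.

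Their partners did not pass: SNX1 was at 13.8 ± 0.713 and 14.6 ± 0.286 FPKM (SD, n = 3 each; log2 change 0.08, limma adjusted p = 0.492), and SNX6 is given above. SNX8 was listed at 7.94, 7.89 and 8.39 FPKM in C1 to C3 and at 5.03, 3.06 and 5.79 in T1 to T3, which did not overlap, yet did not pass (log2 change -0.72, limma adjusted p = 0.0562). The second set had SNX5 at 67.1, 70.5 and 62.2 FPKM against 61.5, 62.9 and 53.9, and SNX2 at 23.1, 24.1 and 23.9 against 25.9, 25.7 and 22.6. Both overlapped.

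Of the remaining sorting nexins, SNX10 and SNX29 rose in the first set. SNX10, which has a PX domain and little else and is known for its need in osteoclasts, was listed at 3.92, 0.940 and 1.10 FPKM in C1 to C3 and at 7.15, 6.98 and 7.63 in T1 to T3. C1 stood above the other controls but below every TGFbeta1 library, and SNX10 rose by 1.60 (SE 0.37, limma adjusted p = 0.0328). Its call was lost without C2, C3 or any 1 TGFbeta1 library, with adjusted p up to 0.0926. SNX29, another protein with a PX domain, was listed at 1.69, 1.98 and 1.59 FPKM in the control libraries and 3.14, 2.999 and 2.80 with TGFbeta1. It rose by 0.53 (SE 0.10, limma adjusted p = 0.0148), and its call was lost without C1, T1 or T2, with adjusted p up to 0.0571. The second set had SNX10 at 1.68, 1.17 and 1.37 FPKM against 1.62, 1.02 and 1.24, which overlapped. None of the 2 tested nexins with a FERM domain (SNX17, SNX27) or the 4 with an RGS or PXA domain (SNX13, SNX14, SNX19, SNX25) passed limma, with 0 and 1 of them at an unadjusted p below 0.05.

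**Figure D4:**
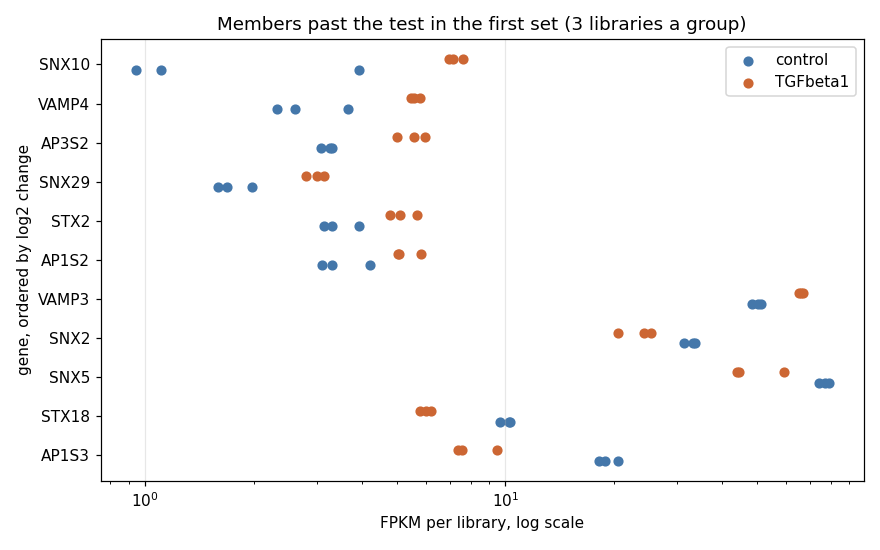
FPKM per library (log axis) of the 11 members that passed limma in the first set, ordered by log2 change, with 3 control (blue) and 3 TGFbeta1 (orange) libraries each. The groups do not overlap for any of the 11, but these were picked by limma on the same libraries, so this adds no support. C1 of SNX10, at 3.92 FPKM, stands apart from the other controls.

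Retromer, the VPS26, VPS29 and VPS35 trimer that retrieves cargo from endosomes, had no subunit called by limma in the first set, and none at an unadjusted p below 0.05. VPS29 was at 36.6 ± 9.23 and 47.95 ± 3.72 FPKM (SD, n = 3 each; log2 change 0.40, limma adjusted p = 0.174), but was called without C3, where the log2 change was 0.60. VPS35, the scaffold, was at 28.3, 17.4 and 27.6 FPKM in C1 to C3 and 22.8, 28.8 and 28.9 in T1 to T3 (log2 change 0.15). The second set listed VPS35 at 3.06, 2.65 and 2.69 FPKM in C4 to C6 and at 2.89, 25.6 and 25.5 in T4 to T6. T4 thus lay with the controls, and T5 and T6 near the level of the first set. VPS26A went the other way, at 43.9, 40.6 and 28.5 FPKM in C4 to C6 and 17.6, 16.5 and 39.2 in T4 to T6, with T6 among the controls.

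No member was called by limma in the first set among the HOPS and CORVET tethers, listed together with VPS33B (8 tested). Nor was any among the GARP and EARP tethers (5), the ESCRT subunits and VPS4 (8) or the VPS13 lipid transfer proteins (4). Their log2 changes ran from -0.23 to 0.17 in the HOPS and CORVET group, -0.39 to 0.14 in GARP and EARP, -0.35 to 0.11 in the ESCRT group and -0.05 to 0.25 in VPS13. At an unadjusted p below 0.05 there was 1 lower in each of the first 3 groups and 1 higher, VPS13B, in the last. The summed level of the HOPS and CORVET group, VPS33B included, was 55.1 to 56.98 FPKM in controls and 56.3 to 59.1 with TGFbeta1. Neither VPS45, which guides syntaxin assembly, nor VPS72, a chromatin remodelling subunit that the name pattern takes in, passed, with log2 changes of -0.05 and 0.10.

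A wide spread between libraries of the same group was measured for a share of the members. With a mean of at least 5 FPKM, 11 of 69 members in the first set and 10 of 72 in the second differed at least 2-fold within a group, a limit chosen after seeing the data. That is 15.9% and 13.9% of the members, beside 16.4% and 11.2% of all genes at that level. On the length-weighted scale 9 and 10 of them still did. For several genes the libraries fell at 2 separate levels that did not follow the groups. VPS37B, an ESCRT-I subunit, was listed at 4.72 FPKM in C1 and 5.30 in T3 but at 20.0, 22.4, 20.1 and 21.1 in C2, C3, T1 and T2, and at 19.8 to 20.8 in all 6 libraries of the second set. VPS4B, the ATPase that takes ESCRT apart, was at 14.3 FPKM in C2 and 11.5 in T3 and at 25.1 to 26.8 in the other 4. SNX3, a retromer partner with a PX domain that fell just short of the 2-fold limit, was at 45.97 FPKM in C2 and 42.9 in T3. It was at 74.4 to 91.3 FPKM in the others. C2 and T3 were also the low libraries of STX6.

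The second set held the like. AP1S1 was listed at 87.7, 46.6 and 43.5 FPKM in C4 to C6 and at 85.5, 87.2 and 46.1 in T4 to T6. STX16 was low in C6 and T6, at 5.05 and 4.29 FPKM, against 12.3 to 19.7 in the other 4. STX5, the Golgi syntaxin, read 11.04, 2.28 and 11.5 FPKM in the control libraries and 1.74, 4.97 and 4.82 in T4 to T6. SNX1 was at 3.76 FPKM in C4 and at 12.1 to 16.2 in the others. SNX15, a sorting nexin with a microtubule-interacting domain, and SNX12, close to SNX3, also overlapped between labels, with log2 changes of -0.84 and 0.38. In the same set the autophagosome syntaxin STX17 had a log2 change of 0.39. The cause of these levels was not tested.

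**Figure D5:**
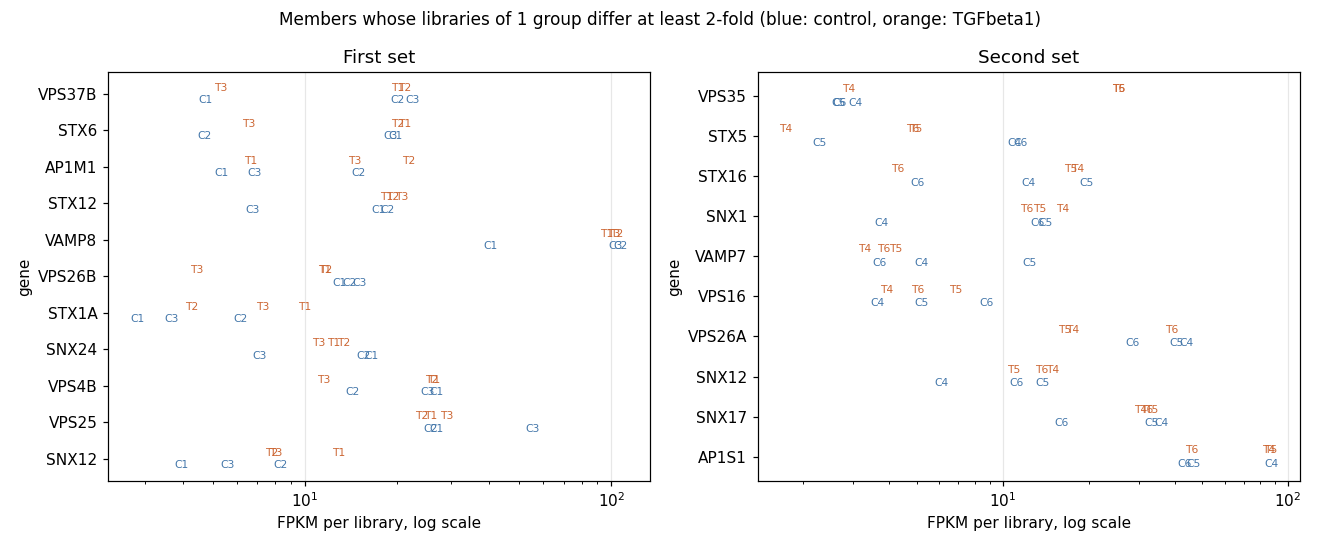
FPKM per library (log axis) of the members whose libraries of 1 group differed at least 2-fold, 11 in the first set (left) and 10 in the second (right), each library drawn as its name (blue control, orange TGFbeta1). VPS37B and STX6 of the first set show 2 levels that each occur in both groups. VPS35 of the second set is high only in T5 and T6, with T4 at the level of the controls.

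Genes that work beside the members were read from lists of other SNAREs, coat proteins, RABs, ESCRT subunits and cargo receptors. In the first set limma called 6 of their 68 tested genes, both directions together, beside 2186 of all 10454 genes tested (9.0% higher and 11.9% lower). Of the other SNARE and disassembly genes, NSF, the ATPase that takes SNARE complexes apart, was at 11.02, 10.5 and 11.01 FPKM in C1 to C3 and at 7.28, 7.36 and 8.22 in T1 to T3. The groups did not overlap, and NSF fell by 0.46 (limma adjusted p = 0.0121).

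Of 12 clathrin, GGA and AP-4 genes limma called none, with 1 higher at an unadjusted p below 0.05. In the WASH and RAB list 1 of 15 was lower, RAB5C of early endosomes, with a log2 change of -0.37 (limma adjusted p = 0.0472) that did not pass under 3 other scalings, where it was -0.31, -0.28 and -0.28, nor without any 1 library but T1, where it ran from -0.39 to -0.30. Of 15 further ESCRT genes STAM2, which binds ubiquitinated cargo, was higher, with a log2 change of 0.38 (limma adjusted p = 0.0240), and did not pass without C1, C2, T1 or T2, at 0.33 to 0.39. Of 9 tested cargo receptors LRP1, an endocytic receptor, was at 7.77, 7.30 and 6.60 FPKM in controls and 13.9, 13.8 and 13.2 with TGFbeta1 and rose by 0.83. SORT1 (sortilin) was at 1.51, 1.56 and 1.70 FPKM against 0.537, 0.401 and 0.506 and fell by 0.81, or by 1.55 with a pseudocount of 0.1 and 1.48 on the length-weighted scale. For the second set limma called none of the 69 tested genes of these lists. At an unadjusted p below 0.05 there were 3 higher and 3 lower, beside 5.8% and 5.4% of all genes.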

How the data were processed

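The authors deposited FPKM values per protein-coding transcript in 2 tables made with FastQC, cutadapt, HISAT2 2.0.4, StringTie 1.2.3 and hg19, per the submitters' processing notes. Annotation, strandedness and settings were not given in the sources used here. FPKM was inferred from the values for the first table, whose header names none. The second table also holds the authors' deposited log2 group means and log2 fold change, which matched the library columns within 1e-07.

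Gene values are sums over transcripts, with 163 first-set symbols renamed through shared identifiers, and VAMP7 summed over its 2 gene identifiers. Genes and, separately, transcripts with a mean FPKM of at least 1 were fitted on log2(FPKM + 1) in limma (version 3.58.1, R 4.3.3), with a mean-variance trend, two-sided, adjusted by Benjamini-Hochberg over all features and called below 0.05. Transcript lengths and sequences came from GENCODE 29, which matched 99.35% and 99.64% of the transcripts. The procedure was run on simulated data with independent, normally distributed noise around each gene's mean. That noise holds no genes whose libraries fall at separate levels within a group, so the run cannot speak for calls on such genes. Same-numbered libraries deviated together with r of 0.007 to 0.017 in the first set and 0.017 to 0.046 in the second. For libraries of different numbers r was -0.026 to 0.009 and -0.053 to 0.014. Every r lay under the limit of 0.1 set for pairing, and the main fit used no pairing. Alternatives were other pseudocounts, filters, scalings, variance models, a replicate block, leaving out libraries, shared transcripts and, added after seeing the data, length-weighted sums. Members and lists were chosen with earlier results of these data known. Named were members called in the first set, the 5 largest changes each way in the second, the 3 highest per set and a fixed list. Some genes of the lists are not reported here.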

Additional observations from a re-analysis of the deposited data

Results flagged for a closer look

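For 3 members every TGFbeta1 library lay above every control in the first set and below every control in the second, and the difference between the sets was not tested. The second set's log2 change minus the first set's was -0.63 for AP1S2 (first set 0.48, second set -0.15), -1.32 for SNX6 (0.14 and -1.17) and -0.61 for STX2 (0.48 and -0.13). These are 3.19% of the 94 members tested in both sets, beside 5.14% of all 9990 such genes that separated in opposite directions. SNX6 was chosen on its second-set values.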

How the results depend on the processing

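No log2 change of a named gene changed sign when called. In the first set the 7 members called higher became 1 at a minimum of 5 FPKM, where 69 members were tested. The calls lost there were those of AP1S2, AP3S2, SNX10, SNX29, STX2 and VAMP4. These genes lay under that minimum and were not tested. The members called higher became 2 with a replicate block, and ranged from 2 to 7 with each library left out. The 4 called lower ranged from 2 to 6 with a library left out, and the calls over all genes, 2186, became 1211 with the block and 1354 to 2030 with a library left out. The 5 transcript calls became 2 without the filter and 0 with the block, and ranged from 1 to 4. In the second set the 3 members called lower became 0 with the block and ranged from 0 to 2, and the 0 called higher ranged from 0 to 1, with a library left out. As those 3 genes were chosen on this contrast, these counts say nothing about its stability. The block kept AP1S3, AP3S2, SNX5, STX18 and VAMP3. Whether the replicate numbers pair the libraries is not known. With a library left out, the spread was pooled over the groups. In the first set other scalings moved the median of all genes by 0.04 to 0.08 and added STX8 and VAMP5. Length-weighted sums added AP3B1 and VPS13B in the first set and lost AP1M1 in the second. The log2 change of AP1M1 there was -2.24 with a pseudocount of 0.1. Without counts, no limit of detection can be given. The causes of these changes were not tested.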
